A study of Mus musculus with 6 samples.

Results

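The genes described here were the 35 mouse genes of sterol synthesis, fatty acid synthesis and desaturation, and sterol regulatory element binding protein (SREBP) control that had been listed by symbol, out of 55291 gene symbols in the deposited tables. They comprised 19 sterol pathway enzymes, 10 enzymes of fatty acid synthesis and desaturation and 6 SREBP regulators. They were listed by name and not by their change, though earlier results of these data were known when the lists were made. RNA sequencing covered 6 libraries of RAW264.7, an established mouse macrophage-like line from ascites that forms multinucleated osteoclasts when given the cytokine RANKL. All 6 libraries came from cells kept for 4 days with RANKL at 50 ng/mL, so no group lacked the cytokine. The shCtrl group (n = 3) had received a control short hairpin and was labelled WT, and the shUSP8 group (n = 3) had received a hairpin against Usp8 and was labelled a knock down. USP8 is a deubiquitinating enzyme that acts on endosomal cargo. The labels name neither the hairpin sequences nor how they were delivered, and nothing in them tells separate cultures from repeat libraries of 1 culture. The p-values therefore cover only how these 6 libraries vary, and that variation may be technical. The comparison asked how the lipid synthesis transcripts differed when Usp8 was reduced in cells forming osteoclasts.

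Cells make cholesterol from acetyl-CoA by the mevalonate pathway. Its early arm ends in farnesyl and geranylgeranyl diphosphate, which also supply the lipid anchors of small GTPases, and its late arm joins farnesyl units into squalene, closes the rings and trims the product to cholesterol. Fatty acids are built from the same acetyl-CoA by acetyl-CoA carboxylase and fatty acid synthase, then lengthened and desaturated. Both routes are driven by the SREBP transcription factors, which are held in the endoplasmic reticulum by SCAP and the INSIG proteins when sterols are plentiful and are cut free by the site-1 and site-2 proteases when sterols are scarce. In osteoclasts the pathway is known from nitrogen-containing bisphosphonates, bone drugs that inhibit farnesyl diphosphate synthase and so deprive small GTPases of their anchors.

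Depth was even, with 19973522 to 20213939 expected counts per library. Usp8 itself was measured at 2785, 2561 and 2645 expected counts in the shCtrl libraries and at 656, 720 and 718 in the shUSP8 libraries. It fell by 2.00 on the log2 scale (SE 0.06, edgeR quasi-likelihood test, Benjamini-Hochberg adjusted p = 1.47e-10), so the labels matched the target in every library. Macrophage and osteoclast markers were present in all 6 libraries, with Calcr the scarcest, and some of them moved with the groups. The 6 osteoclast markers summed to 228580 to 238050 counts in shCtrl and to 199290 to 209160 in shUSP8. Of them Acp5, Ctsk and Mmp9 fell, with Ctsk near the threshold (edgeR adjusted p = 0.0496). Dcstamp (log2 -0.13) and Calcr (-0.41) were lower and Ocstamp (0.12) was higher, and these were not called. The 5 macrophage markers summed to 69092 to 71287 and to 62886 to 65807 counts. Among these Adgre1 (log2 0.93) and Itgam (0.64) rose by more than any of the 35 genes, Cd68 (-0.36) and Csf1r (-0.19) fell, and Ptprc was not called. The adipocyte markers summed to at most 3 counts in any library, and those of lymphocytes and neutrophils were at 0. Library shUSP8_1 stood apart in several genes. The 3 hepatocyte markers Alb, Apoa1 and Ttr summed to 920 counts there and to 87 to 247 in the other libraries, and Mki67, a marker of dividing cells, had 1877 counts there and 4428 to 5265 elsewhere. Akap9, which overlaps Cyp51, had 591 counts there and 1884 to 2175 elsewhere. Scaled to library size, the dividing-cell markers Cdk1, Ccnb1, Mcm2 and Pcna in shUSP8_1 lay within the range of the other libraries and were not called. Top2a, also such a marker, was lowest in shUSP8_1 and was called lower in shUSP8 (log2 -0.23, edgeR adjusted p = 0.00484). The stromal markers summed to 160 counts in shCtrl_3 and to 26 to 62 in the others. The part of these marker shifts in the results that follow was not tested, but leaving shUSP8_1 out left the same 16 lipid synthesis genes called.

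All 35 genes passed the filter on low counts. Of them 10 rose and 6 fell in shUSP8 at an adjusted p under 0.05, which is 45.7% of the genes against 32.8% of all 12440 genes tested. In the upward direction the share of all genes called was 17.8%, and in the downward direction 14.9%. The shUSP8 libraries lay wholly above the shCtrl libraries for 13 of the 35 genes, where 24.6% of all genes did so, and wholly below for 7, where 23.1% of all genes did so. The changes were small: fold changes ran from -0.58 to 0.54 on the log2 scale, and the median absolute change was 0.14 against 0.17 over all genes tested. Among sterol enzymes 5 of 19 (26.3%) were called, among fatty acid enzymes 8 of 10 (80%) and among regulators 3 of 6. The difference between these lists was not tested, and on log2(TPM + 1) 6 of 19 sterol and 3 of 10 fatty acid enzymes were called. The split by direction depended on scaling: without TMM factors, scaling to library totals gave 13 higher and 2 lower, beside 25% and 9.42% of all genes tested. Limma-trend on log2(TPM + 1), where TPM is a normalised abundance per transcript length, gave 9 higher and 1 lower, beside 19.1% and 4.02% of all genes. Those scalings moved the median of all genes tested to 0.07 and 0.11, from -0.00 with TMM factors, so small falls below are relative to the bulk of the transcriptome. Without shCtrl_1, 10 rose and 2 fell, without shCtrl_2, 8 and 3, without shCtrl_3, 7 and 4, and without shUSP8_3, 7 and 2. In those 4 fits the shares of all genes tested that rose were 14.2%, 13.3%, 13.9% and 13.6%, and the shares that fell were 11.1%, 9.81%, 10.3% and 10.5%. RNA came from whole cultures, so fewer cells of a kind and less RNA per cell cannot be told apart.

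**Figure D1:**
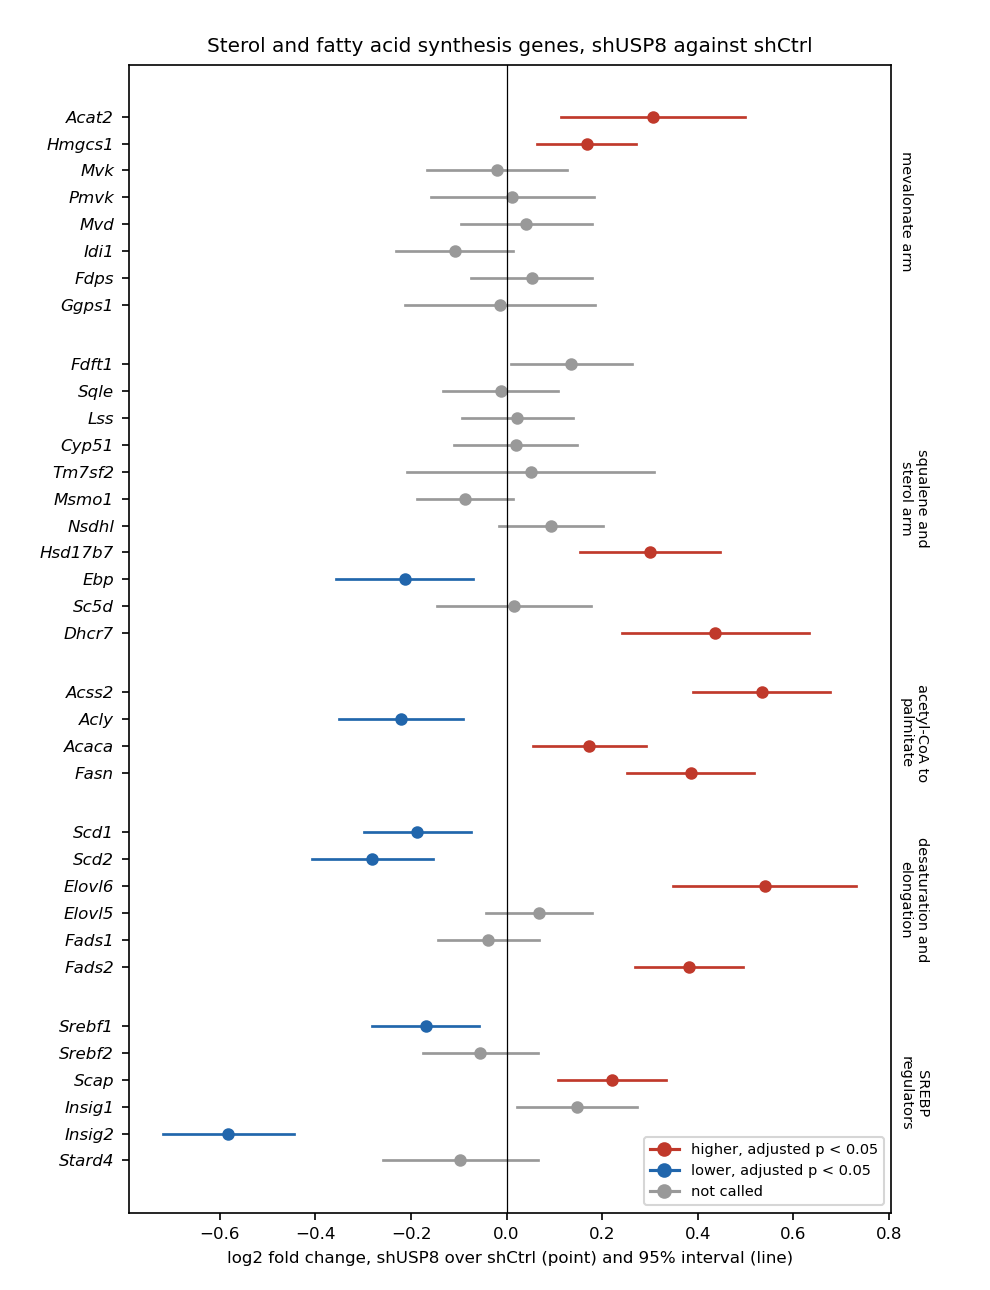
Log2 fold change of each of the 35 genes in shUSP8 over shCtrl (point) with its unadjusted 95% interval (line), ordered by step in the pathway. Most sterol enzymes sit around 0, while Acss2, Elovl6, Fasn and Fads2 lie to the right and Insig2 lies farthest to the left.

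The promoters were read for the DNA letters through which SREBPs and their partners are known to act. SREBPs bind the sterol regulatory element, usually beside the CCAAT-binding factor NF-Y or the GC-box factor Sp1, and E-boxes bind USF, carbohydrate response and SREBP family proteins. The 250 bases upstream of each RefSeq start site (GRCm38.p6) were available for 28 of the 35 genes. Stard4, Scd2, Scd1, Fdft1, Fads1, Fdps and Sqle had no entry. The 3 windows printed here are those of Hmgcs1, which held the single sterol regulatory element match, of Fasn, which had the largest CPM among the genes that rose, and of Insig2, the gene that fell most. They are written 5′ to 3′ on the strand of the gene, with TCACNCCAC and CCAAT in either direction (CCAAT or ATTGG) in capitals.
Hmgcs1, chr13:119690101-119690350, plus strand: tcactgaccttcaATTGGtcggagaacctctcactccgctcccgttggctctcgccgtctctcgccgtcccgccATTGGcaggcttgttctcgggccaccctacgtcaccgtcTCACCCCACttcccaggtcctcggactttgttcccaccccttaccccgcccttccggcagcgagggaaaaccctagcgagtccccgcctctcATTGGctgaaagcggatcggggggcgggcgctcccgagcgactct
Fasn, chr11:120824548-120824797, minus strand: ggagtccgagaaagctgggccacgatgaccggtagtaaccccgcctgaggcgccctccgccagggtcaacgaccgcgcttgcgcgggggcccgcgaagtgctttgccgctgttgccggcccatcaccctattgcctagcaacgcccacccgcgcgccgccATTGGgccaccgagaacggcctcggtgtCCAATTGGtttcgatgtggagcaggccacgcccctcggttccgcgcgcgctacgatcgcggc
Insig2, chr1:121332590-121332839, minus strand: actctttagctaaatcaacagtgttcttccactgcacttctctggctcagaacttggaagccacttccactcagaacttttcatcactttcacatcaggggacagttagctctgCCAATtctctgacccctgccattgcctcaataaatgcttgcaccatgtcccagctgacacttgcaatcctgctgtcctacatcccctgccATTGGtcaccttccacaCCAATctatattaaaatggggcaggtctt
The Hmgcs1 window carried 1 sterol regulatory element core, 137 bases upstream of the start, in a window with 3 CCAAT runs. In the Fasn window, 2 of the 3 CCAAT runs shared letters with each other, and that of Insig2 held 3 CCAAT runs and no sterol regulatory element core.

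TCACNCCAC, searched on both strands, was found for 1 of 28 genes (3.57%) and for 1.22% of 27025 genes, and the exact TCACCCCAC gave the same gene against 0.555% of all. CCAAT was found for 22 of 28 genes (78.6%) against 37.5% of all genes, the GC box GGGCGG for 22 of 28 against 35.4%, and the E-box CACGTG for 6 of 28 (21.4%) against 6.86%. A gene with several listed starts was counted when any of its windows held the letters. The 27025 genes are all symbols with a window and were not limited to the 12440 tested, whereas all 28 had passed the filter on low counts. The part of expression or base composition in these shares was not tested. By list, CCAAT was found in 15 of 16 sterol enzymes, 3 of 7 fatty acid enzymes and 4 of 5 regulators. By change, among genes with a window, it was found in all 14 that were not called, in 5 of 10 that rose and in 3 of 4 that fell. Scd1 and Scd2, which fell, had no window. Of the 19 genes not called, 14 were sterol enzymes, so the splits by change and by list overlap. These are letter matches in a short window and no binding was measured.

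**Figure D2:**
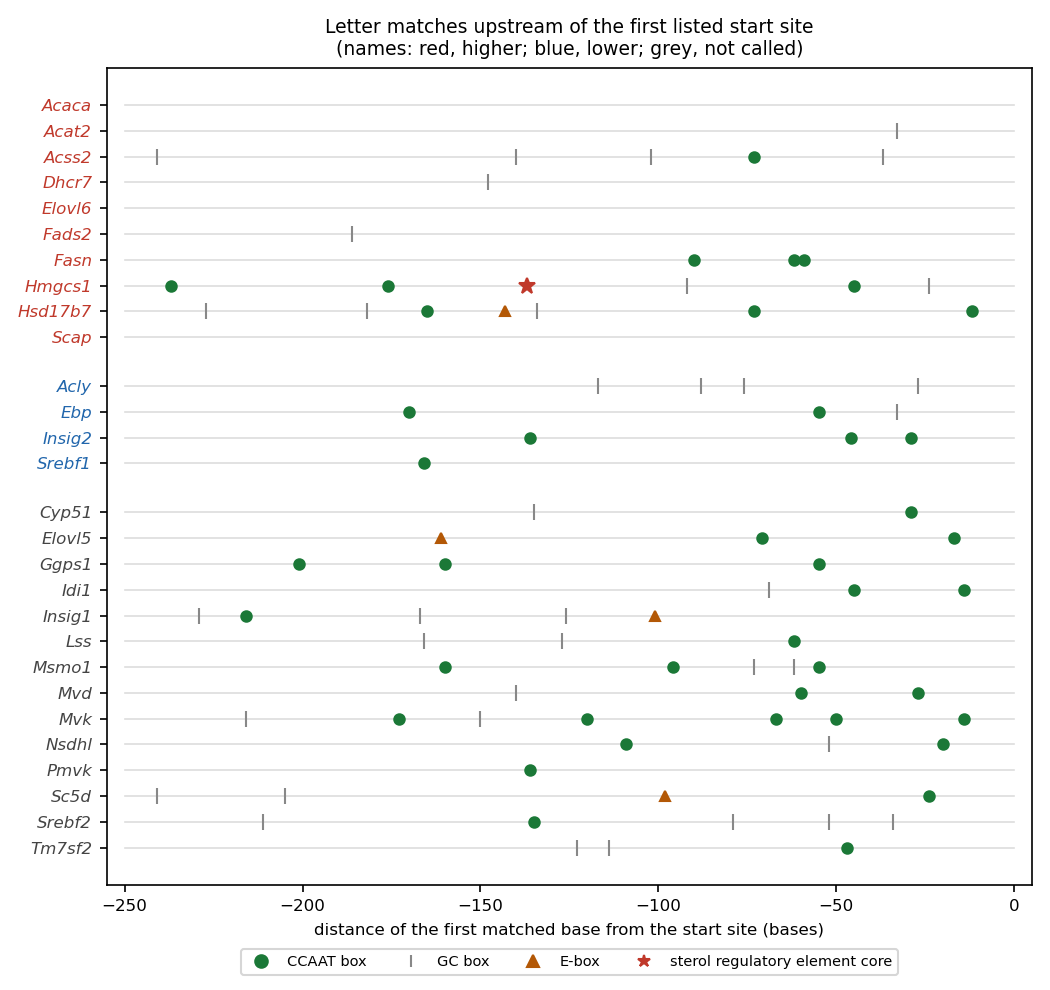
Position of letter matches in the 250 bases upstream of the first listed start site of 28 genes, in bases from the start, with gene names coloured by change. Green CCAAT points appear in nearly every row of the genes that were not called, and the single star is the sterol regulatory element core of Hmgcs1.

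Sterol pathway transcripts were mostly level. Of the 8 enzymes of the mevalonate arm 2 rose and none fell, and of the 11 enzymes of the squalene and sterol arm 2 rose and 1 fell. Of all genes tested 17.8% rose and 14.9% fell. The median log2 fold change of the 19 was 0.02, against -0.00 over all genes tested. On log2(TPM + 1) this median was 0.19, against a median of 0.11 for all genes. By limma-trend on that scale 6 of the 19 were higher and 0 lower, beside 19.1% and 4.02% of all genes. Without shCtrl_3 or without shUSP8_3, 2 of the 19 remained called higher, where 13.9% and 13.6% of all genes rose. In summed TPM the 19 enzymes came to 991, 918 and 874 in shCtrl and 1040, 1052 and 1038 in shUSP8, a log2 ratio of 0.17.

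The mevalonate arm begins with the joining of acetyl-CoA units. Acat2, the cytosolic thiolase that makes acetoacetyl-CoA, stood at 35.7, 34.4 and 27.5 CPM (counts scaled to library size) in shCtrl and at 41.1, 39.5 and 40.1 CPM in shUSP8. Its groups did not overlap and it rose by 0.31 on the log2 scale (SE 0.09, edgeR adjusted p = 0.0200), a call lost without shCtrl_3, the lowest control (adjusted p = 0.0506), and without shUSP8_3 (adjusted p = 0.0674). Hmgcs1, the HMG-CoA synthase of the next step, rose by 0.17 (SE 0.05, edgeR adjusted p = 0.0173), from 126.9 ± 3.66 to 142 ± 1.81 CPM (mean ± SD, n = 3). That call was lost without shCtrl_2, shCtrl_3 or shUSP8_3, with adjusted p of 0.0686, 0.0666 and 0.0563. Acat2 and Hmgcs1 were named after their values were seen.

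Further along the arm no gene was called. Fdps encodes farnesyl diphosphate synthase, the bisphosphonate target. It measured 269, 255.7 and 258 CPM in shCtrl and 285, 278 and 249 CPM in shUSP8. The lowest library of all was shUSP8_3 and the highest shUSP8_1, so the groups overlapped. The log2 difference was 0.05 with a 95% interval of -0.07 to 0.18 (edgeR adjusted p = 0.529). The mevalonate kinases and decarboxylase (Mvk -0.02, Pmvk 0.01, Mvd 0.04), the isomerase Idi1 (-0.11) and the geranylgeranyl synthase Ggps1 (-0.01) also missed the threshold, with unadjusted intervals between -0.23 and 0.18.

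In the squalene and sterol arm the genes that moved sat near its end. Dhcr7 encodes the reductase that makes cholesterol from 7-dehydrocholesterol. It stood at 31.1, 26.8 and 23.5 CPM in shCtrl and at 36.8, 35.7 and 37.7 CPM in shUSP8, so every shUSP8 library was above every control, and it rose 1.35-fold (log2 0.44, SE 0.09, edgeR adjusted p = 0.00297). Hsd17b7, the sterol 3-ketoreductase that acts while methyl groups are removed, measured 36.5, 35.3 and 32.7 CPM against 41.4, 41.5 and 45.7 CPM. It rose by 0.30 (SE 0.07, edgeR adjusted p = 0.00484), with no overlap.

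Ebp, the isomerase that moves a ring double bond shortly before Dhcr7 acts, went the other way. It stood at 34.98, 35.02 and 37.5 CPM in shCtrl and at 32.8, 30.1 and 29.7 CPM in shUSP8, without overlap, and fell by 0.21 on the log2 scale (SE 0.07, edgeR adjusted p = 0.0269). Ebp was a weak call, kept without shUSP8_1 and lost without any other single library, where the adjusted p ran from 0.0510 to 0.103. The TPM ratio of Dhcr7 to Ebp was 0.393, 0.380 and 0.314 in shCtrl and 0.632, 0.859 and 0.680 in shUSP8, without overlap (two-sided exact permutation p = 0.1, adjusted p = 0.12). Dhcr7 was higher and Ebp lower in every shUSP8 library than in any control, so this separation followed from the choice of pair. Dhcr7, Hsd17b7 and Ebp were named after their values were seen.

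The other 8 enzymes of this arm were not called. In CPM, squalene synthase Fdft1 (0.14, interval 0.01 to 0.26, edgeR adjusted p = 0.0932) and Nsdhl (0.09, interval -0.02 to 0.20) lay higher in every shUSP8 library. Msmo1 (-0.09, interval -0.19 to 0.01), which removes sterol methyl groups, lay lower in every one in CPM, but its groups overlapped in TPM. Squalene epoxidase Sqle (-0.01), lanosterol synthase Lss (0.02), the demethylase Cyp51 (0.02), the reductase Tm7sf2 (0.05) and Sc5d (0.02) had overlapping groups. Tm7sf2 was the least certain of the sterol enzymes, with 7.28 to 9.57 CPM and an interval of -0.21 to 0.31. Fdft1, Cyp51, Ggps1 and Tm7sf2 share exonic bases with genes that had over 5% as many counts (Ctsb, Akap9, Arid4b and Vps51). Whether counting used the strand is not given in the sources used here, and Vps51 lies on the same strand as Tm7sf2.

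Fatty acid synthesis genes moved in both directions. Of the 4 enzymes that supply acetyl-CoA and build palmitate, Acss2, Acaca and Fasn rose and Acly fell, and of 6 desaturases and elongases Elovl6 and Fads2 rose, Scd1 and Scd2 fell, and Elovl5 and Fads1 were not called. The median of the 10 was 0.12, against -0.00 for all genes tested. Under limma-trend on log2(TPM + 1), 3 were called higher (Acss2, Fasn and Fads2) and none lower, beside 19.1% and 4.02% of all genes. The median on that scale was 0.24 against 0.11 for all genes. Without shCtrl_1 or without shUSP8_3 only 1 of the 3 falls, that of Scd2, was called.

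The enzymes that supply acetyl-CoA moved in opposite directions. Acss2, the cytosolic enzyme that makes acetyl-CoA from acetate, stood at 30.1, 26.6 and 30.0 CPM in shCtrl and at 41.2, 42.5 and 41.9 CPM in shUSP8. All 3 shUSP8 libraries were far above the highest control, and Acss2 rose 1.45-fold (log2 0.53, SE 0.07, edgeR adjusted p = 6.47e-05). Gss, a glutathione enzyme gene on the opposite strand, shares 395 of the 10163 exonic bases of Acss2. Gss rose by 0.30 (edgeR adjusted p = 0.00185), and the part of its reads in the Acss2 counts was not tested.

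Acly, the enzyme that makes acetyl-CoA from citrate, was far more abundant. It measured 497, 474 and 475 CPM in shCtrl and 386, 446 and 409 CPM in shUSP8, with no overlap, and fell by 0.22 on the log2 scale (SE 0.06, edgeR adjusted p = 0.0133). Leaving out shCtrl_1 or shUSP8_3 ended its call (adjusted p = 0.0652 and 0.0618), and its TPM values overlapped between groups, with a difference of -0.08 on log2(TPM + 1) (limma-trend adjusted p = 0.511). Acly was named after its values were seen. The TPM ratio of Acss2 to Acly was 0.0889, 0.0777 and 0.0862 in shCtrl and 0.165, 0.136 and 0.148 in shUSP8. The groups of ratios did not overlap (two-sided exact permutation p = 0.1, the smallest possible with 3 against 3, and 0.12 after adjustment over 6 ratios). In CPM Acss2 was higher and Acly lower in every shUSP8 library than in any control, so the ratio is no separate support.

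Fasn and Acaca run the chain itself. Fasn, the fatty acid synthase, measured 303, 308 and 278 CPM in shCtrl and 360.2, 406 and 395 CPM in shUSP8, with shUSP8_1 the lowest of its group but above every control. It rose 1.31-fold (log2 0.38, SE 0.06, edgeR adjusted p = 0.000445), and the log2 change was 0.43 without shUSP8_1. Acaca, acetyl-CoA carboxylase, stood at 88.6, 83.4 and 82.5 CPM against 91.1, 99.8 and 96.1 CPM and rose by 0.17 (SE 0.05, edgeR adjusted p = 0.0277). Its call was lost without shCtrl_2, shCtrl_3, shUSP8_2 or shUSP8_3, with adjusted p from 0.0725 to 0.114, with DESeq2 (0.0650), on log2(TPM + 1) by limma-trend (0.131) and with effective-length offsets (0.259). Fasn, Acaca and Fads2 were named after their values were seen.

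Elongation and polyunsaturated fatty acid genes were also uneven. Elovl6, which lengthens palmitate to stearate, was the lowest of the 35 genes in TPM and stood at 9.77, 9.75 and 9.40 CPM in shCtrl and at 12.9, 14.6 and 14.6 CPM in shUSP8. It rose 1.45-fold (log2 0.54, SE 0.09, edgeR adjusted p = 0.000557), without overlap, and by 0.60 without shUSP8_1. Under limma-trend on log2(TPM + 1) its adjusted p was 0.0532, and with effective-length offsets in edgeR 0.0550.

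Fads2, the desaturase that opens the polyunsaturated pathway, rose from 61.0, 58.5 and 56.1 CPM to 77.3, 75.3 and 76.2 CPM (log2 0.38, SE 0.05, edgeR adjusted p = 0.000137). Fads1, the later desaturase and its neighbour on chromosome 19, stood at 204 to 211 CPM in shCtrl and 196 to 209.5 CPM in shUSP8, a log2 difference of -0.04 (interval -0.14 to 0.07). The TPM ratio of Fads2 to Fads1 went from 0.312, 0.299 and 0.296 to 0.398, 0.406 and 0.418 (two-sided exact permutation p = 0.1, adjusted p = 0.12). Elovl5, which lengthens polyunsaturated fatty acids, differed by 0.07 (interval -0.04 to 0.18).

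Stearoyl-CoA desaturases, which put the double bond into oleate, fell. Scd2 was the most abundant of the 35 genes in TPM and stood at 2278, 2264 and 2237 CPM in shCtrl and at 1813, 1985 and 1780.5 CPM in shUSP8. The groups were well apart and it fell by 0.28 on the log2 scale (SE 0.06, edgeR adjusted p = 0.00285). On log2(TPM + 1) the fall was 0.15 by limma-trend (adjusted p = 0.102). Scd1 measured 116, 113 and 111 CPM against 105, 97.9 and 96.1 CPM and fell by 0.19 (SE 0.05, edgeR adjusted p = 0.0152). Its groups overlapped in TPM, and its call was lost without shCtrl_1, shCtrl_2 or shUSP8_3, with adjusted p from 0.0578 to 0.0772. The paralogues Scd3 and Scd4 had at most 8.39 and 21.0 counts in any library. The TPM ratio of Scd2 to Scd1, 9.19, 9.61 and 7.86 against 9.33, 8.90 and 7.40, overlapped between groups (two-sided exact permutation p = 0.6).

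**Figure D3:**
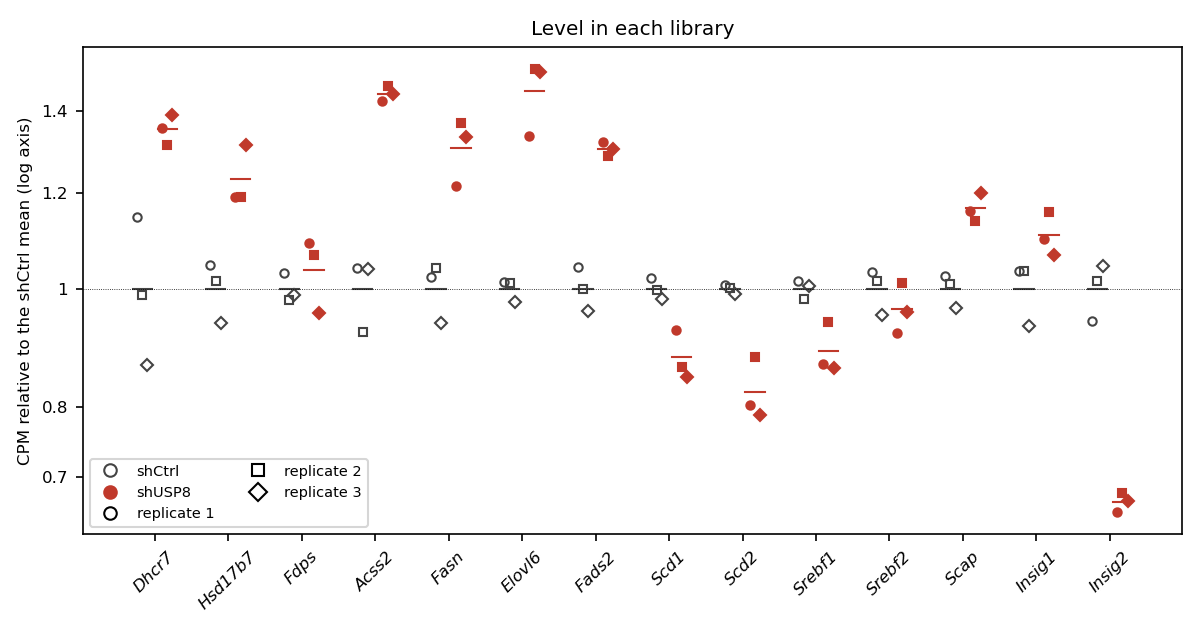
CPM in each library divided by the shCtrl mean (log axis) for 14 genes, with open symbols for shCtrl, filled symbols for shUSP8, a shape for each replicate number and a line at the group mean. Acss2, Elovl6 and Fads2 in shUSP8 lie above every control and Insig2 lies near 0.67 of the shCtrl mean, while Fdps and Srebf2 overlap.

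Among the regulators the pair of INSIG genes parted. Insig2, which anchors SCAP in the endoplasmic reticulum, stood at 42.1, 45.4 and 46.7 CPM in shCtrl and at 29.3, 30.4 and 29.9 CPM in shUSP8. The 3 shUSP8 libraries lay close together and far under the lowest control. It was 1.497-fold lower (log2 -0.58, SE 0.06, edgeR adjusted p = 1.99e-05), the largest fall among the 35 genes. The call held in all 16 alternative settings, and in rank of TPM Insig2 went from place 11 to place 22 of the 35.

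Insig1, its paralogue and itself a known SREBP target, stood at 88.6, 88.5 and 79.8 CPM against 94.0, 99.0 and 91.3 CPM. Every shUSP8 library was above every control, but the log2 difference of 0.15 (unadjusted interval 0.02 to 0.27) missed the threshold (edgeR adjusted p = 0.0707), and passed it with library totals alone (0.0176). The TPM ratio of Insig2 to Insig1 was 1.21, 1.14 and 1.17 in shCtrl and 0.665, 0.663 and 0.583 in shUSP8 (two-sided exact permutation p = 0.1, adjusted p = 0.12). In TPM Insig2 was thus the more abundant of the pair in each control library and the less abundant in each shUSP8 library. Insig2 was lower and Insig1 higher in every shUSP8 library than in any control, so separate groups of ratios followed from those values.

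Scap, the escort that carries SREBPs to the Golgi, stood at 56.9, 56.1 and 53.6 CPM in shCtrl and at 64.4, 63.2 and 66.7 CPM in shUSP8. Its groups did not overlap and it rose by 0.22 (SE 0.05, edgeR adjusted p = 0.00659), though not on log2(TPM + 1) by limma-trend (adjusted p = 0.0678) or with effective-length offsets (0.111). Srebf1, the SREBP gene known mainly for fatty acid synthesis, measured 167, 162 and 166 CPM against 143, 155 and 142 CPM. It fell by 0.17 (SE 0.05, edgeR adjusted p = 0.0239), and the call was lost without shUSP8_3 or any single control library, with adjusted p from 0.0625 to 0.108. With library totals (edgeR adjusted p = 0.200) and on log2(TPM + 1) (-0.09, limma-trend adjusted p = 0.364) Srebf1 was not called either, and its groups overlapped in TPM. Rai1, on the opposite strand, shares 1.93% of the exonic bases of Srebf1 and differed by 0.13 (edgeR adjusted p = 0.129).

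Srebf2, known mainly for sterol synthesis, stood at 420.3, 413 and 387 CPM against 374, 411 and 390 CPM, and the groups overlapped (log2 -0.05, interval -0.18 to 0.07, edgeR adjusted p = 0.487). The TPM ratio of Srebf1 to Srebf2 was 0.519, 0.494 and 0.533 in shCtrl and 0.468, 0.483 and 0.460 in shUSP8 (two-sided exact permutation p = 0.1, adjusted p = 0.12). Stard4, a sterol carrier, overlapped between groups, at 55.2 to 64.9 CPM and 51.0 to 58.3 CPM (log2 -0.10, interval -0.26 to 0.06). The median of the 6 regulators was -0.08, and 0.05 on log2(TPM + 1). On that scale 1 was lower (Insig2) and none higher, beside 4.02% and 19.1% of all genes.

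**Figure D4:**
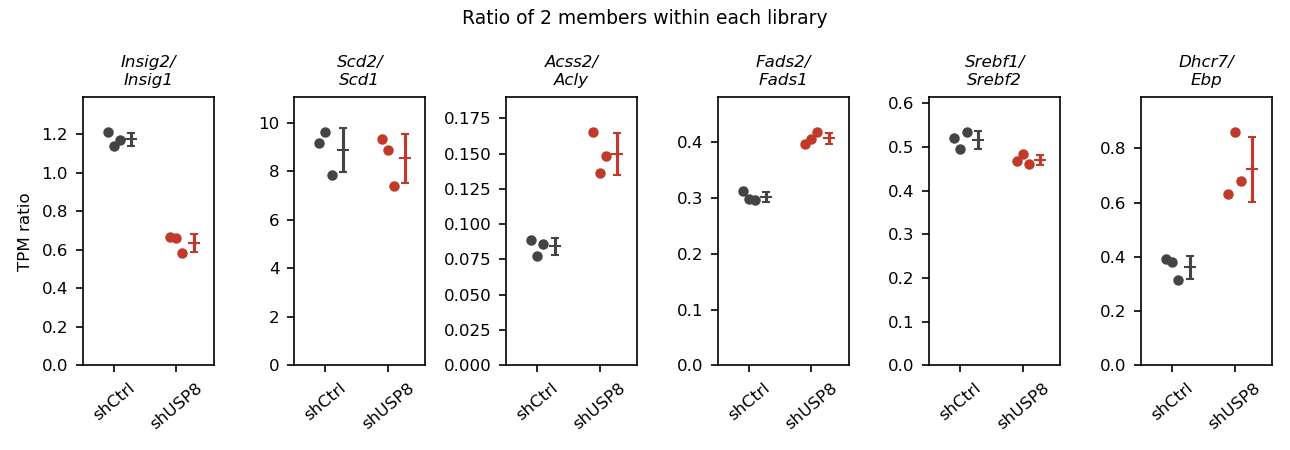
TPM ratio of a pair of genes within each library (points), with the mean and SD of 3 libraries beside them and each axis starting at 0. The groups of points are apart for every ratio except Scd2 to Scd1, and Insig2 to Insig1 passes from above 1 in shCtrl to below 1 in shUSP8.

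Levels per transcript length placed Scd2 first in shCtrl, at 493 ± 21.3 TPM, followed by Fdps at 307 ± 17.2, Acly at 151 ± 3.06, Srebf2 at 116 ± 8.16 and Msmo1 at 93.2 ± 5.14 (mean ± SD, n = 3). Each of these 5 lay clear of the next, with no overlap of the control libraries. Ggps1 at 8.5 ± 1.504 TPM and Elovl6 at 2.44 ± 0.310 TPM came last. Of the 34 neighbouring pairs in this order 8 were separated and 26 were not, so most ranks in the middle are interchangeable. The first 8 genes held their places in shUSP8.

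**Figure D5:**
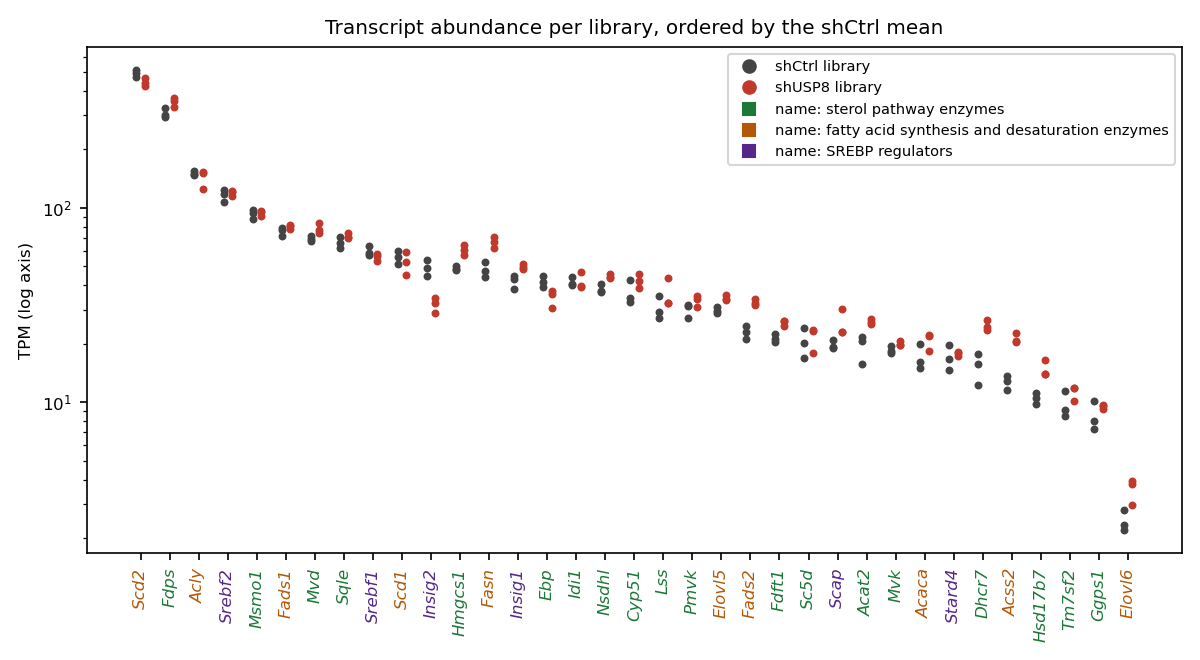
TPM of the 35 genes in each library (log axis), ordered by the shCtrl mean, with shCtrl in grey, shUSP8 in red and gene names coloured by list. Scd2 and Fdps stand above the rest, Elovl6 is lowest, and the red points of Insig2 fall below its grey points.

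A wider list of 52 genes around these pathways was counted in the same way. Of them 45 passed the filter, 10 rose and 7 fell (37.8% called, near the 32.8% of all genes tested, of which 17.8% rose and 14.9% fell). Its first 13 genes were those of ubiquinone and dolichol synthesis, protein prenylation and later processing, and the sterol reductase Lbr. Of these none rose and 1 fell, the farnesyltransferase subunit Fnta (log2 -0.17, edgeR adjusted p = 0.0447). The Fnta call was lost in 12 of 16 alternative settings, among them every left-out library except shUSP8_1 (adjusted p from 0.0567 to 0.144), and its value was -0.014 on log2(TPM + 1). Fatty acid elongation, activation and supply had 6 higher and 5 lower of 18 tested, and further regulators of SREBP 4 higher and 1 lower of 14. Elovl2, Elovl3, Elovl4, Elovl7, Thrsp, Mlxipl and Prkaa2 did not pass the filter.

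Among those that rose, Aacs, which activates acetoacetate for lipid synthesis, rose by 0.50 (SE 0.06, edgeR adjusted p = 8.56e-05). The long-chain acyl-CoA synthetase Acsl1 rose by 0.38 (SE 0.05, edgeR adjusted p = 9.83e-05). The dehydratases of the elongation cycle Hacd2 (0.44) and Hacd3 (0.28), the AMP-activated kinase subunit Prkaa1 (0.23) and the site-2 protease Mbtps2 (0.20) also rose, with edgeR adjusted p from 0.00245 to 0.0127. Of these 6, Hacd3, Prkaa1 and Mbtps2 each lost the call without 2 or more of the libraries taken singly, Hacd2 lost it on log2(TPM + 1) by limma-trend (adjusted p = 0.105) and with effective-length offsets (0.195), and Mbtps2 was at -0.0012 with effective-length offsets.

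Among those that fell, Lpin1, a phosphatidate phosphatase of glycerolipid synthesis, fell by 0.56 (SE 0.07, edgeR adjusted p = 0.000128), and Acsl3, another acyl-CoA synthetase, fell by 0.40 (SE 0.05, edgeR adjusted p = 5.45e-05). Acsl1 and Acsl3 thus moved in opposite directions. Mid1ip1, which promotes acetyl-CoA carboxylase assembly, fell by 0.45 (SE 0.06, edgeR adjusted p = 0.000173). Slc25a1, the mitochondrial citrate carrier upstream of Acly, fell by 0.24 (edgeR adjusted p = 0.0220), and the elongation-cycle reductase Hsd17b12 by 0.16 (edgeR adjusted p = 0.0211). The calls of Slc25a1 and Hsd17b12 were lost without shCtrl_1, shCtrl_2 or shUSP8_3, with adjusted p from 0.0523 to 0.0947. Both calls were also lost with library totals (edgeR adjusted p = 0.107 and 0.22) and with effective-length offsets (0.1055 and 0.0576). On log2(TPM + 1) their values were -0.12 and -0.02 (limma-trend adjusted p = 0.433 and 0.843). Mid1ip1 lost its call on that scale (-0.21, limma-trend adjusted p = 0.0604).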

How the data were processed

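RNA sequencing libraries of 3 shCtrl and 3 shUSP8 samples were read from whole-series tables. The expected counts were deposited by the authors and, per the submitters' processing notes, RSEM and DESeq2 1.28.1 and the mm10 genome were used, with no roles given. The TPM values, deposited by the authors, are relative abundances per transcript length. The aligner and strand setting are not given in the sources used here. Columns named KO were taken as shUSP8, the only other genotype label.

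Expected counts were rounded (7.16% were not whole) and fitted over all genes with the robust quasi-likelihood F test of edgeR 4.0.16 under R 4.3.3. Library sizes were TMM-scaled, and filterByExpr kept genes by a minimum count of 10 and a minimum total of 15. A gene was called at a Benjamini-Hochberg adjusted p under 0.05 over all 12440 genes. SE is the absolute log2 fold change over the square root of F. Intervals are 95% and unadjusted. CPM values use TMM factors. TPM ratios were compared by a two-sided exact permutation test. The pipeline was tested on simulated data. Alternatives were RLE, upper quartile and library-total scaling, no filter, DESeq2 1.42.0, limma-voom and limma-trend (limma 3.58.1) on log2(TPM + 1) and log2(TPM + 0.1), effective-length offsets (genes with TPM of at least 0.5), the replicate number as a block, and fits without each library in turn.

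The genes and lists were chosen with earlier results of these data known. The naming rule gives in full called genes of at least 0.5 on the log2 scale (Acss2, Elovl6, Insig2), the regulators Srebf1, Srebf2, Scap, Insig1 and Insig2, Scd1, Scd2 and Fdps, and of the wider list up to 6 called genes in each direction by smallest p, of which 1 is not reported here. Other genes given in full, and Fnta, were named after their values were seen. Symbols were placed on GENCODE M21 (GRCm38) through 217 of 219 transcripts with the same symbol. Promoters came from RefSeq. Other tools were Python 3.11.15, pandas 2.3.3, numpy 2.4.6 and matplotlib 3.10.9.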

Additional observations from a re-analysis of the deposited data

How the results depend on the processing

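Of 560 values of single genes over 16 alternatives, 501 kept the call or its absence, 52 lost the call and 7 gained it. None of the 35 genes reversed a call. Among the 501, 37 values of 14 genes changed sign without being called in either setting. Hsd17b7, Dhcr7, Acss2, Fasn, Fads2 and Insig2 kept their calls throughout. Library totals gave 0 sterol enzymes lower (median 0.096), 1 fatty acid enzyme lower (median 0.195), and 2 regulators higher and 1 lower. On log2(TPM + 1) no sterol enzyme was lower (median 0.193), 3 fatty acid enzymes were higher and 0 lower (median 0.241), and 0 regulators were higher and 1 lower (median 0.05417). On log2(TPM + 0.1) the same counts came with medians of 0.194, 0.250 and 0.0564. Effective-length offsets gave 3 fatty acid enzymes higher and 1 lower and 0 regulators higher, and turned the Mbtps2 value to -0.0012. DESeq2 called 0 sterol enzymes lower. Leaving out single libraries gave 2 to 4 sterol enzymes higher and 0 to 1 lower (median 0.015 to 0.085), 4 to 5 fatty acid enzymes higher and 1 to 3 lower, and 1 to 2 regulators lower. The causes were not tested. Across all genes, 4077 calls became 2498 with offsets, 2879 on log2(TPM + 1), 2880 on log2(TPM + 0.1) and 2914 without shCtrl_2. Same-numbered libraries were not pairs by label, and their deviations correlated at -0.00733, 0.0781 and -0.0542. With a replicate block 3711 genes were called, including 4 sterol enzymes higher and 1 lower, 4 fatty acid enzymes higher and 3 lower, and 1 regulator higher and 2 lower, and Acaca alone of the 35 lost its call.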

Other observations

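The effective length of a gene, its expected count over its TPM, moved between groups for some of the genes. Relative to the median of all genes, the log2 change in shUSP8 ran from -0.14 (Dhcr7) to 0.19 (Ebp), with Insig2 at 0.18 (percentile 96.2 of all genes) and Elovl6 at 0.12 (percentile 93.3). With these lengths as offsets in edgeR the log2 fold change was 0.58 for Dhcr7, -0.39 for Ebp, -0.75 for Insig2 and 0.43 for Elovl6, against 0.44, -0.21, -0.58 and 0.54 without them.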
